A study of Rattus norvegicus with 14 samples.

Results

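The genes of phosphofructokinase and of the enzymes that make and break its activator were followed in perfused rat intestine, as all 7 probes whose symbol in the platform annotation starts with Pfk, of 4952 probes on the array. Each of the 7 genes has 1 probe. They are Pfkl, Pfkm and Pfkp, which encode the liver, muscle and platelet subunits of phosphofructokinase, and Pfkfb1, Pfkfb2, Pfkfb3 and Pfkfb4, which encode the bifunctional enzymes of fructose 2,6-bisphosphate. After probes of the same gene had been averaged, the array gave 4682 features, and every adjusted p below is adjusted over all of them.

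The RNA, given as total RNA in one label and as mRNA in another, came from small intestine of rats of 20 days, perfused in all groups with HG or HF. The labels do not expand these names. Knowledge of the study gives high glucose for HG and high fructose for HF, and they are read so here. Arrays of 2 colours set the HG against the HF sample of the same pair number, on 5 arrays for perfusion of 4 h and on 4 arrays for perfusion of 20 min. As a reference, 3 arrays carried 1 RNA of 4 h in both channels (1HG, 3HG and 3HF) and are called self-self arrays 1, 2 and 3 here. A second array of pair 2 at 4 h and an array of labelling primers stood outside the tests. No array is labelled as unperfused intestine, and the labels do not say whether a sample is 1 animal or a pool, or whether pairs came from different animals, so p-values reflect only how these arrays spread, which may be technical. A ratio also holds no level: how abundant each of the 7 transcripts was, and whether the RNA carries the markers of intestine, cannot be read from it.

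Phosphofructokinase adds the second phosphate to fructose 6-phosphate and is the main control point of glycolysis. Fructose 2,6-bisphosphate is its strongest activator and at the same time inhibits fructose bisphosphatase, the opposing enzyme of gluconeogenesis. The Pfkfb proteins carry a kinase that makes this activator and a phosphatase that removes it, and they differ in the balance of the activities and in how hormones and nutrients set them. Fructose that is phosphorylated by ketohexokinase enters below this step, so its breakdown bypasses phosphofructokinase.

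Values are ratios, treated as log2, after the median of each array was subtracted. A positive value likely means more RNA in the HF sample. The basis is indirect, since the second array of pair 2, whose title marks HG with a 5 and HF with a 3, gave -1.66 for the fructose transporter gene Slc2a5, against 1.62 on the first array. That is 1 gene. Over all 4682 features the first and second array correlated at a Pearson r of 0.41 (Spearman's rho 0.26). After the self-self mean of each feature was subtracted, r was 0.50. An exchange of dyes with no other effect would give negative values. Dye effects that both arrays share can raise the first r, and the subtracted mean, common to both arrays, can raise the second. The direction is thus not settled. If it runs the other way, every sign below turns. The self-self arrays show what a probe gives when both channels hold the same RNA, and differences are given against them. Self-self array 1 stood apart, with an SD of 1.39 over its probes and 227 probes beyond 2 in size, against SDs of 0.35 and 0.30 on self-self arrays 2 and 3 and of 0.33 to 0.40 on the 9 arrays at 4 h and 20 min. It was kept in the fit, and values without it are given where they bear on a result. A gene was called at an adjusted p below 0.05 in limma's test.

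In the 4 h samples Pfkfb2, Pfkl and Pfkfb4 had higher ratios on all 5 arrays than on any self-self array, and their promoters are printed for that reason, as RefSeq gives them on GRCr8. Each runs from 250 bases before to 50 bases after the gene's start, and all 7 genes were found in that table. Capitals mark the GC box, GGGCGG on either strand. Pfkfb2 lies at chr13:44726922-44727221 on the minus strand, Pfkl at chr20:10663715-10664014 and Pfkfb4 at chr8:118525916-118526215, both on the plus strand.
Pfkfb2: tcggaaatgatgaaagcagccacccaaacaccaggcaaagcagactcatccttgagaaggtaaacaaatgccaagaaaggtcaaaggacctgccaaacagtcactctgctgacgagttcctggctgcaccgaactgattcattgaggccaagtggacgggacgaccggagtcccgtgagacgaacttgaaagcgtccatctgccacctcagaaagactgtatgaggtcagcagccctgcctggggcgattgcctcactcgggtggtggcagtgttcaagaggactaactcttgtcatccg
Pfkl: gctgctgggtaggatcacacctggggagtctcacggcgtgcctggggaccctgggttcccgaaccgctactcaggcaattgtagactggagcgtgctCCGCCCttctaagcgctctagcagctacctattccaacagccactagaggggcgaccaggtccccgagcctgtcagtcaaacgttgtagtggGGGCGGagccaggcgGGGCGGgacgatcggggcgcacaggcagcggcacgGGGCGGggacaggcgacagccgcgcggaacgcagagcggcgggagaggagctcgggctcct
Pfkfb4: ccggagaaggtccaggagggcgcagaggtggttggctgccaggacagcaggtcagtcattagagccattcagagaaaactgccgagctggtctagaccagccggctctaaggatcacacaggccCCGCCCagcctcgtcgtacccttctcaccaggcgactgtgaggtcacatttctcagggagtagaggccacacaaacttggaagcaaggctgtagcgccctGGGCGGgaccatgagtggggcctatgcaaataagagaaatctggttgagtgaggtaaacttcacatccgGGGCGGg

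The Pfkl promoter held 4 matches of the GC box and the Pfkfb4 promoter 3, while the Pfkfb2 promoter held 0. The promoters of Pfkp and Pfkfb3, which overlapped with the self-self arrays, held 2 each, so the box was in 4 of the 7 promoters. Among all 33469 promoters of this length 33.1% hold at least 1. The E-box CACGTG was found in the promoter of Pfkfb3 alone (6.42% of all promoters), and ACGTG, the core of the hypoxia response element, in those of Pfkm and Pfkfb3 (19.3%). In Pfkfb3 both ACGTG matches overlap the E-box. The cAMP response element TGACGTCA was in 0 of the 7 (1.83% of all). Both strands were searched. The 3 genes thus shared no searched motif in this window, and Pfkfb2, at 53.7% G and C, was closer to the median promoter (51.7%) than Pfkl (67.7%).

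The 4 h arrays were set against the self-self arrays to find Pfk genes with unequal RNA in HF and HG samples. None of the 7 passed over all features, where 0.0641% of features did. Of the 7, 6 lay above 0 with a median of 0.34 against the self-self arrays, beside a median of -0.0082 over all features, of which 48.5% lay above 0. In limma 3 genes, Pfkfb2, Pfkl and Pfkfb4, had an unadjusted p below 0.05 on the higher side, as had 4.76% of all features, and in the same 3 the groups of arrays did not overlap, which held on the higher side for 3.31% of all features.

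Pfkfb2, known as the heart form of the bifunctional enzyme and present in other tissues too, had ratios of 0.71, 0.63, 0.41, 0.10 and 0.68 on the 4 h arrays 1 to 5, against 0.077, -0.061 and -0.27 on the self-self arrays. Array 4 was low and only just above the highest self-self array. The difference was 0.59 ± 0.15 (SE; 1.51-fold; limma adjusted p = 0.214), with a 95% confidence interval from 0.27 to 0.91.

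Pfkl, the subunit that dominates in liver, had ratios of 0.54, 0.92, 1.26, 0.57 and 0.51 on the 4 h arrays, against 0.35, 0.034 and 0.36 on the self-self arrays. Arrays 2 and 3 were high, and the other 3 lay close together. The probe gave positive ratios on every self-self array, with a mean of 0.25 ± 0.19 (SD, n = 3). Its mean was 0.76 ± 0.32 (SD, n = 5) at 4 h and 0.14 at 20 min. Whether its self-self mean differs from 0 was not tested. The difference between the 4 h and self-self arrays was 0.51 ± 0.17 (SE; 1.42-fold; limma adjusted p = 0.358).

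Pfkfb4, first described in testis, had ratios of 0.62, 0.29, 0.61, 0.14 and 0.50 on the 4 h arrays, against 0.038, -0.040 and 0.022 on the self-self arrays. Its self-self values spread least of the 7 genes, with an SD of 0.041 (n = 3). The difference was 0.42 ± 0.15 (SE; 1.34-fold; limma adjusted p = 0.404), and as for Pfkfb2 array 4 was the lowest of the 5. Without self-self array 1 the differences were 0.67 for Pfkfb2, 0.56 for Pfkl and 0.44 for Pfkfb4 (limma adjusted p = 0.197, 0.375 and 0.478), and still 0 of the 7 genes passed.

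**Figure D1:**
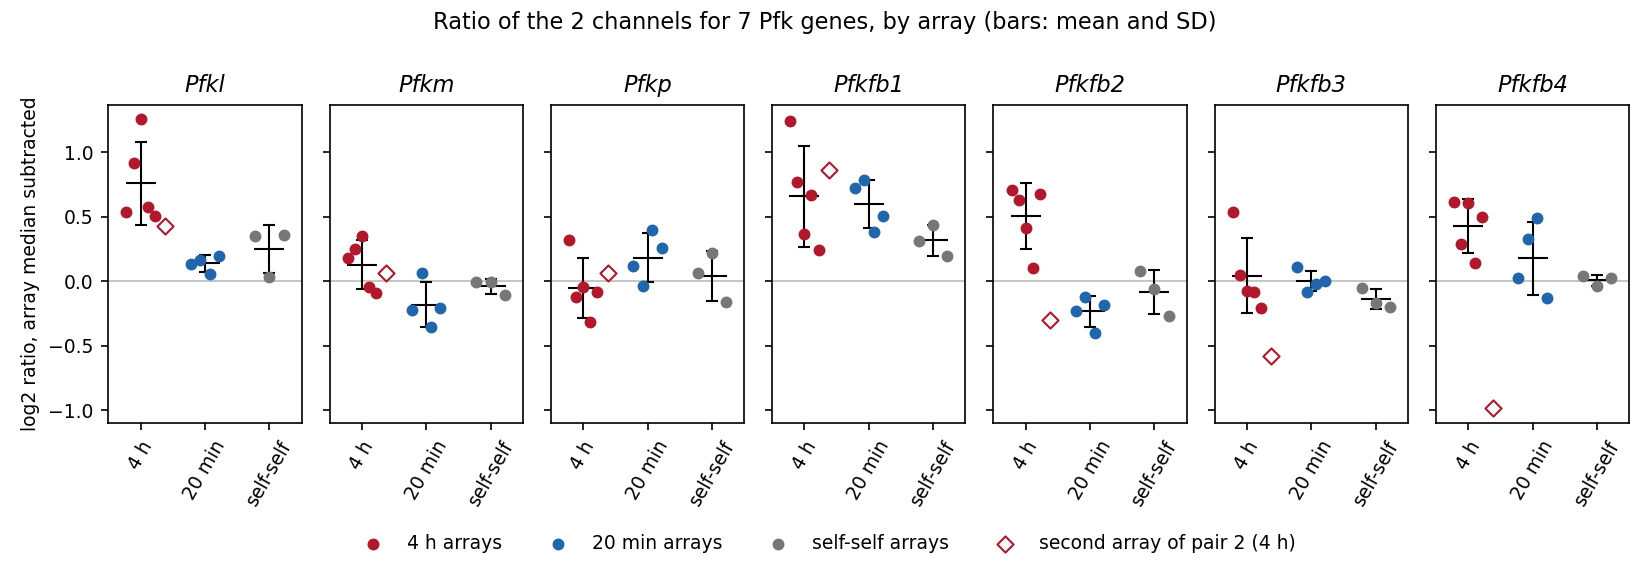
Log2 ratio (vertical axis, array median subtracted) of the 7 Pfk genes on each array, by group, with bars for the mean and SD; the open diamond is the second array of pair 2, which is in no mean. Pfkfb2, Pfkl and Pfkfb4 lie higher on all 5 arrays at 4 h than on the 3 self-self arrays. Pfkfb1 and Pfkl are above 0 on every array.

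Pfkfb1, the form of liver and muscle, had a high mean at 4 h that the self-self arrays partly shared. Its ratios were 1.25, 0.77, 0.37, 0.67 and 0.24 on the 4 h arrays, against 0.31, 0.44 and 0.20 on the self-self arrays. The groups overlapped, and the difference was 0.34 ± 0.20 (SE; limma adjusted p = 0.516). Pfkfb3, the inducible form, in which kinase activity far exceeds phosphatase activity, ranged from -0.21 to 0.53 at 4 h, where array 1 stood above the other 4, against -0.20 to -0.050 on the self-self arrays. Its difference was 0.18 ± 0.15 (SE; limma adjusted p = 0.658), and 0.061 without array 1.

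The other phosphofructokinase subunits overlapped with the self-self arrays. Pfkm, the muscle subunit, lay between -0.094 and 0.35 at 4 h, against -0.11 to -0.0034 on the self-self arrays, with a difference of 0.17 (95% interval -0.11 to 0.44; limma adjusted p = 0.639). Pfkp, the platelet subunit, lay between -0.32 and 0.32 at 4 h, against -0.16 to 0.22 on the self-self arrays. It was the 1 gene of the 7 with a negative difference, -0.090 (95% interval -0.42 to 0.24; limma adjusted p = 0.858), and with the pair number as a block this became 0.039. Both intervals overlap that of Pfkl (95% interval 0.15 to 0.87), and differences between genes were not tested.

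Had the 4 h ratios been set against 0 in place of the self-self arrays, 4 of the 7 genes would have been called, all on the higher side, where 8.42% of all features were. These were Pfkl (mean 0.76; limma adjusted p = 0.000382), Pfkfb2 (0.51; 0.00227), Pfkfb1 (0.66; 0.00287) and Pfkfb4 (0.43; 0.00859). On that scale Pfkfb1 stood beside the others, and relative to the self-self arrays it was the one of the 4 whose groups overlapped. The self-self RNA was itself of 4 h and includes RNA named as in pairs 1 and 3. At 20 min the same setting called Pfkfb1 alone (mean 0.60; limma adjusted p = 0.0171), where 4.36% of all features were called on the higher side.

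The 20 min arrays were set against the self-self arrays in the same way. None of the 7 genes passed in limma (0.0427% of all features did), 0 had an unadjusted p below 0.05 (5.21% of all features), and in 0 of the 7 were the 20 min arrays clear of the self-self arrays (7.01% of all features). The median of the 7 differences was 0.14, with 4 above 0, beside 0.0022 over all features. Pfkfb2 had ratios of -0.23, -0.12, -0.40 and -0.19 on the 20 min arrays, all below 0, against 0.077, -0.061 and -0.27 on the self-self arrays, and a difference of -0.15 ± 0.15 (SE; limma adjusted p = 0.949), or -0.070 without self-self array 1.

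At 20 min Pfkl lay within a narrow range, at 0.13, 0.17, 0.053 and 0.20, against 0.35, 0.034 and 0.36 on the self-self arrays. Its difference was -0.11 ± 0.17 (SE; limma adjusted p = 0.967), or -0.060 without self-self array 1. Pfkfb4 was the most variable of the 7 at 20 min, at 0.022, 0.33, 0.49 and -0.13, against 0.038, -0.040 and 0.022 on the self-self arrays, with a difference of 0.17 ± 0.16 (SE; limma adjusted p = 0.938).

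Pfkfb1 had ratios of 0.72, 0.78, 0.38 and 0.50 at 20 min and a difference of 0.28 ± 0.21 (SE; limma adjusted p = 0.881), close to its difference at 4 h. Pfkm (-0.14), Pfkp (0.14) and Pfkfb3 (0.14) made up the rest. One of the ratios of Pfkfb3, on 20 min array 4, is listed at exactly 0 before centring. Exact zeros occur on the 4 arrays at 20 min alone, 37 to 123 probes on each, and may stand for values that were not measured. Treated as missing, an alternative chosen after seeing the data, the zeros changed no call of a Pfk gene, and the difference of Pfkfb3 stayed at 0.14.

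**Figure D2:**
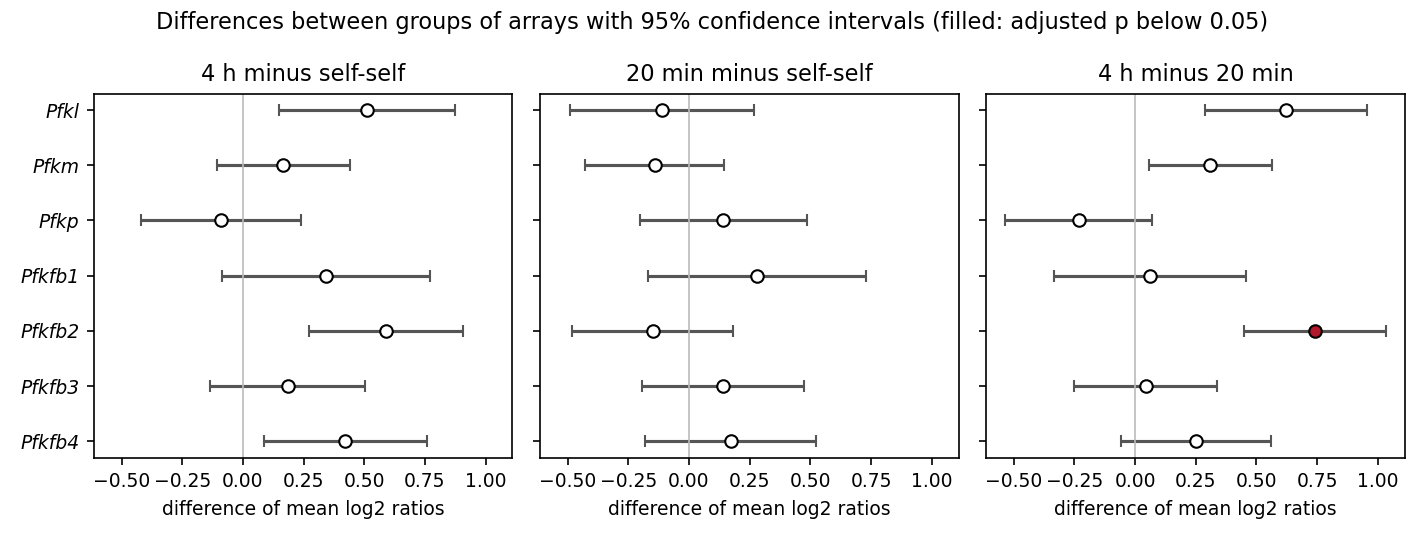
Difference of mean log2 ratios (horizontal axis) for the 7 Pfk genes in the 3 comparisons, with 95% confidence intervals from limma; a filled point marks an adjusted p below 0.05. Pfkfb2 at 4 h against 20 min, 0.74, is the 1 filled point, and at 20 min every interval spans 0.

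The last comparison set the 4 h arrays against the 20 min arrays directly, to test the change of the ratio with time of perfusion. An effect of dye that both sets of arrays share drops out of it, but it takes the ratio to have the same direction in both. All 3 comparisons share groups of arrays, so they are not independent of each other. Here 1 of the 7 genes passed, Pfkfb2, where 0.598% of all features did (28 features, and 43 without self-self array 1). In limma 3 of the 7, Pfkfb2, Pfkl and Pfkm, had an unadjusted p below 0.05, all of them higher at 4 h, as had 6.3% of all features on that side. The groups did not overlap for Pfkfb2 and Pfkl, which held on the higher side for 3.42% of all features. The median of the 7 differences was 0.25, beside -0.0084 over all features, of which 48% lay above 0.

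The ratio of Pfkfb2 was higher at 4 h, with ratios between 0.10 and 0.71 on 5 arrays, than at 20 min, with ratios between -0.40 and -0.12 on 4 arrays. The difference was 0.74 ± 0.13 (SE; 1.67-fold; limma adjusted p = 0.0359), with a 95% interval from 0.45 to 1.03, and it ranked 18 by p among the 4682 features. Group means were 0.51 ± 0.25 (SD, n = 5) at 4 h and -0.23 ± 0.12 (SD, n = 4) at 20 min, and by size most of the gap lay at 4 h.

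The difference of Pfkfb2 stayed between 0.65 and 0.84 under every alternative tried, but its call did not. With 1 array left out it passed in 2 of 12 fits, those without 4 h array 4 (adjusted p = 0.0137) and without self-self array 1 (0.0221), and in the other 10 the adjusted p lay between 0.0511 and 0.143. Those 10 fits left out 4 h array 1, 2, 3 or 5, any of the 4 arrays at 20 min, or self-self array 2 or 3. With a self-self array left out the difference itself stayed at 0.74. Those arrays enter this comparison only through the shared estimate of the spread. It also failed in 4 of 10 other alternatives, among them the arrays scaled to the same spread (0.0636) and the second array of pair 2 averaged in, as deposited (0.217) or with its sign turned (0.054).

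Pfkl came next, with ratios between 0.51 and 1.26 at 4 h, against 0.053 to 0.20 at 20 min. The gap between the sets of arrays was 0.62 ± 0.15 (SE; 1.54-fold), and limma's adjusted p was 0.116. Pfkm, at -0.094 to 0.35 on the 4 h arrays against -0.35 to 0.061 on the 20 min arrays, overlapped and differed by 0.31 ± 0.12 (SE; limma adjusted p = 0.264). Pfkfb4 differed by 0.25 ± 0.14 (SE; limma adjusted p = 0.493), since its ratios at 20 min reached 0.49.

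The other 3 genes had differences near 0 or below it. Pfkfb1 differed by 0.061 (95% interval -0.33 to 0.46) and Pfkfb3 by 0.043 (-0.25 to 0.34), and both changed sign with 4 h array 1 left out, to -0.086 and -0.079. Pfkp was lower at 4 h, at a mean of -0.049 ± 0.23 (SD, n = 5), than at 20 min, at 0.18 ± 0.19 (SD, n = 4), a difference of -0.23 that did not pass (limma adjusted p = 0.522).

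The second array of pair 2, set beside the first, gives a further look at each gene. If its dyes were exchanged, a difference between HF and HG should lie on the other side of the self-self mean. Pfkfb2 had 0.63 on the first array and -0.30 on the second, around a self-self mean of -0.084. Pfkfb4 had 0.29 and -0.99 around 0.0070, the widest gap of the 7. Pfkfb3 had 0.045 and -0.58 around -0.14, and Pfkp -0.12 and 0.062 around 0.042.

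The remaining 3 genes stayed on the same side on both arrays of pair 2. Pfkl had 0.92 on the first array and 0.43 on the second, both above its self-self mean of 0.25, and Pfkm 0.25 and 0.067 above -0.040. Pfkfb1 had 0.77 and 0.87, above a self-self mean of 0.32. In all, 4 of the 7 changed side, beside 43.7% of all features. Pfkp is among the 4, though its second array lay only 0.020 above its self-self mean. Its self-self ratios had an SD of 0.19 (n = 3), so its side on that array is uncertain. The second array had an SD of 0.82 over its probes, against 0.33 to 0.40 on the 9 arrays at 4 h and 20 min, and its dyes are not given in the labels.

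**Figure D3:**
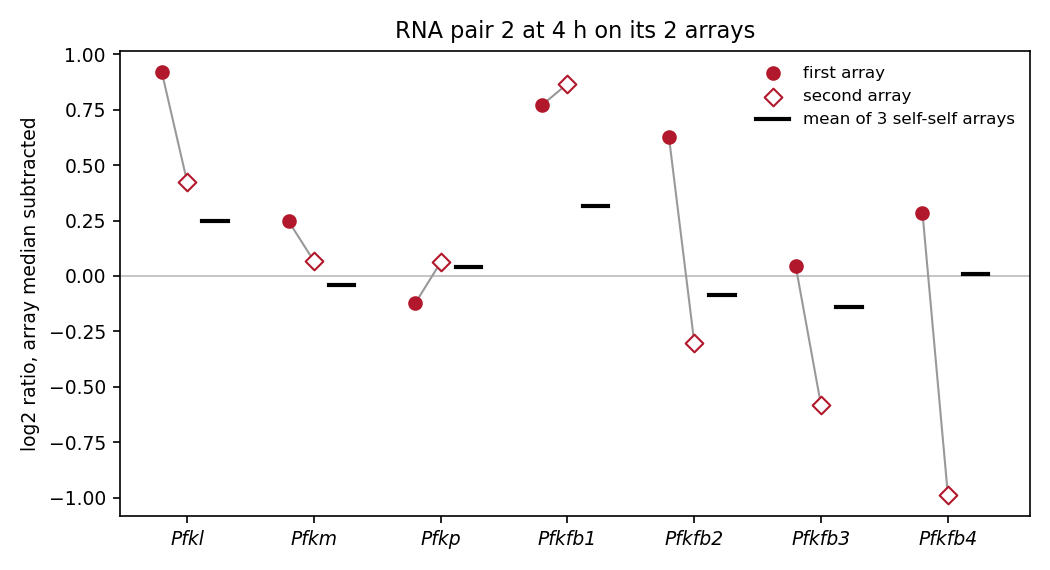
Log2 ratio (vertical axis, array median subtracted) of the 7 Pfk genes on the first (filled) and second (open) array of pair 2 at 4 h, with the mean of the 3 self-self arrays as a bar. Pfkfb2, Pfkfb3, Pfkfb4 and Pfkp lie on opposite sides of the bar, and Pfkl, Pfkm and Pfkfb1 lie above it on both arrays.

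Across the 9 arrays at 4 h and 20 min the 7 genes did not move as a block. Pfkl and Pfkm varied together (Pearson r = 0.86), as did Pfkfb1 and Pfkfb3 (0.85, with a Spearman's rho of 0.53). Pfkfb2 had r = 0.71 with Pfkl and 0.72 with Pfkm. Pfkp had negative r with Pfkl (-0.49), Pfkm (-0.42) and Pfkfb2 (-0.33). With Pfkfb3 (0.52), Pfkfb1 (0.15) and Pfkfb4 (0.099) its r was positive. These values describe 9 arrays of 2 times on 1 platform, and the step between the times is part of each.

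The genes whose ratios followed each Pfk gene most closely over the same 9 arrays were listed by Pearson r. They were picked as the highest among the 4156 features with a symbol. Such a choice over 9 arrays favours high r for any gene, and none of these values was tested. For Pfkfb2 they were Pdk2 (0.95), which encodes a kinase that inhibits pyruvate dehydrogenase, the isocitrate dehydrogenase gene Idh1 (0.95), the elongation factor gene Eef1d (0.94), the glutathione synthetase gene Gss (0.94) and Slc37a4 (0.94), which encodes the glucose 6-phosphate transporter. For Pfkl they were Uso1 (0.97), Snurf (0.95), Zfp36 (0.94), Slc25a16 (0.94) and Rpl31 (0.93). For Pfkfb4 they were Gpr6 (0.92), Nr1i2 (0.91), Tsnax (0.91), Wipf3 (0.89) and the fatty acid synthase gene Fasn (0.89). The closest to Pfkm was Hnrnpa3 (0.92), to Pfkp Vegfb (0.94), to Pfkfb1 Ccn3 (0.93) and to Pfkfb3 Nupr1 (0.98). Hif1a, for a transcription factor of the response to low oxygen, was also among the closest 5 for Pfkp (0.92).

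The neighbouring steps of the pathway were counted on lists that were chosen with earlier results known. Of the genes from hexokinase to the triose phosphates, leaving out phosphofructokinase, 6 of 10 were measured, and 0 passed in any comparison. Their medians were 0.067 for 4 h against self-self arrays and 0.088 for 4 h against 20 min. Aldoc, an aldolase gene, had the largest difference from the self-self arrays at 4 h (0.39; limma adjusted p = 0.446), and Tpi1, for triose phosphate isomerase, was at -0.32 (0.492). Of the genes from triose phosphates to lactate, 13 of 15 were measured and 0 passed, with medians of 0.11 and 0.11. The lactate dehydrogenase gene Ldhb (0.64; limma adjusted p = 0.128), the enolase gene Eno1 (0.40; 0.438) and the pyruvate kinase gene Pklr (0.37; 0.492) had the smallest p at 4 h against self-self arrays.

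Of 8 genes listed for the reverse reactions 5 were measured and 0 passed, with a median of 0.55 for 4 h against self-self arrays and 0.49 for 4 h against 20 min. Fbp1, whose enzyme undoes the phosphofructokinase step and is inhibited by fructose 2,6-bisphosphate, differed by 1.15 ± 0.24 (SE; limma adjusted p = 0.164) against the self-self arrays at 4 h. The gene Slc37a4 differed by 0.55 ± 0.11 (SE; limma adjusted p = 0.148), and G6pc1, for glucose 6-phosphatase, by 1.83 ± 0.49 (SE; limma adjusted p = 0.244). For Fbp1, Slc37a4 and G6pc1 the 4 h arrays did not overlap with the self-self arrays, which held on the higher side for 3.31% of all features. The other 2 measured members, named here after their values were seen to complete the list, were Fbp2 at -0.34 and Pc at 0.10 (limma adjusted p = 0.781 and 0.849), and both overlapped with the self-self arrays.

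Of 22 genes for enzymes that act on fructose 2,6-bisphosphate or signal to the Pfkfb proteins 17 were measured, and 0 passed in any comparison. Their median was 0.023 for 4 h against self-self arrays and 0.0090 for 4 h against 20 min. Prkag1, a subunit of the AMP-activated kinase, differed by 0.39 (limma adjusted p = 0.446) and Prkaca, the catalytic subunit of the cAMP-dependent kinase that phosphorylates the liver form, by -0.67 (0.466) at 4 h against self-self arrays. Hif1a differed by -0.39 (limma adjusted p = 0.4) between 4 h and 20 min.

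Of 11 genes for fructose entry and sugar sensing 8 were measured, with medians of 0.24 for 4 h against self-self arrays and 0.19 for 4 h against 20 min. Slc2a5, whose protein takes up fructose, was higher by 1.69 ± 0.16 (SE; limma adjusted p = 0.000397) for 4 h against self-self arrays, and it is also the gene from which the likely HF side was read. Gpd1, which encodes the dehydrogenase that links triose phosphate to glycerol phosphate, was higher for 4 h against 20 min by 0.64 ± 0.11 (SE; limma adjusted p = 0.0297), next to Slc2a5 (1.97 ± 0.14; adjusted p = 2.89e-05). Ketohexokinase, from Khk, differed by 0.057 and 0.20 (limma adjusted p = 0.86 and 0.343) against self-self arrays and against 20 min. For 20 min against self-self arrays 0 of the genes on these lists passed.

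**Figure D4:**
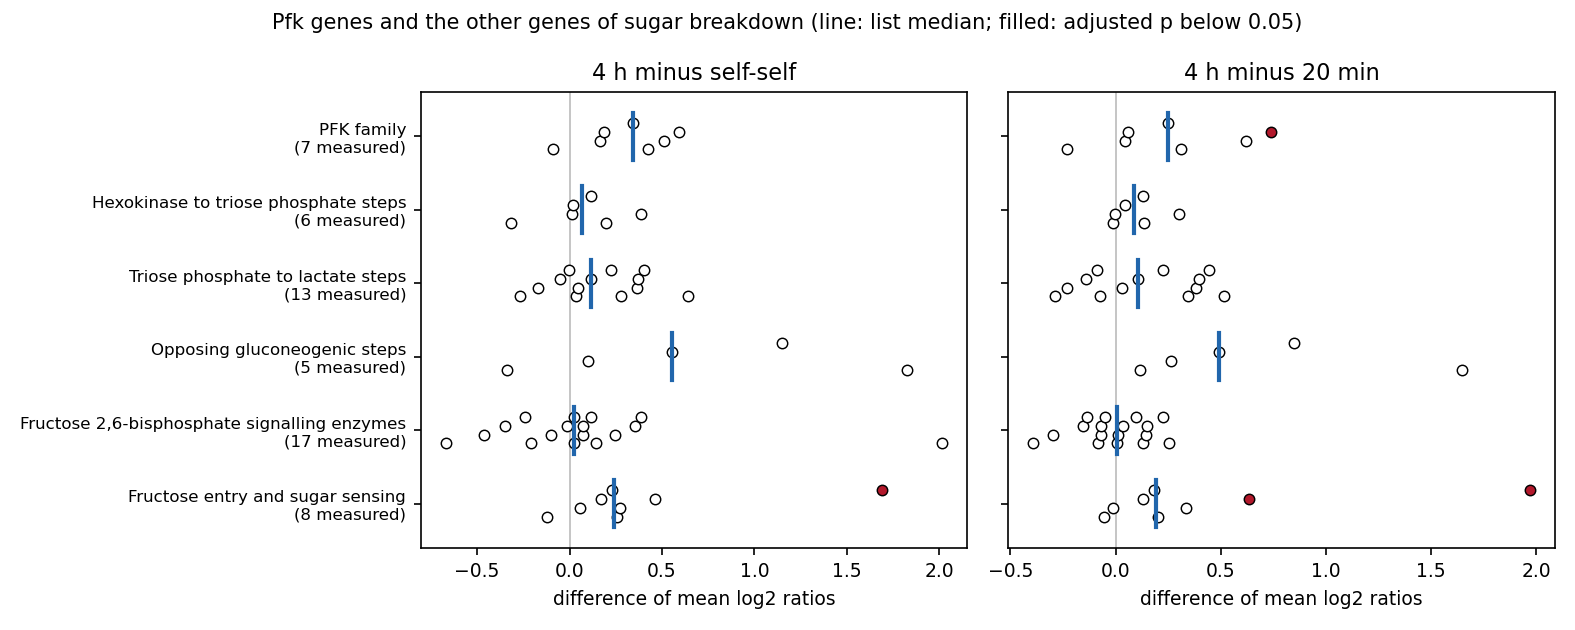
Difference of mean log2 ratios (horizontal axis) of the Pfk genes and of 5 lists of neighbouring genes, for 4 h against self-self arrays and 4 h against 20 min, each point a gene and each line the list's median. The Pfk genes have medians of 0.34 and 0.25, and the filled points, with an adjusted p below 0.05, are Pfkfb2, Slc2a5 and Gpd1.

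Markers of the cells in the wall of the intestine did not pass in any comparison (0 genes called on any of 5 lists, beside the 0.0641%, 0.0427% and 0.598% of all features given above). The mean log2 ratio of 8 enterocyte markers lay between -0.36 and -0.12 on the 4 h arrays, between -0.16 and 0.0083 on the 20 min arrays and between -0.33 and 0.023 on the self-self arrays. For 4 h against 20 min, where Pfkfb2 was called, their median difference was -0.20, with 6 of 8 below 0 and 3 of 8 lower at an unadjusted p below 0.05. The apolipoprotein gene Apoa1 differed by -0.44 ± 0.11 (SE; limma adjusted p = 0.126) in that comparison and by -0.59 ± 0.12 (0.155) for 4 h against self-self arrays, in both without overlap of the groups, and its p against the self-self arrays was smaller than that of any Pfk gene. Of 6 smooth muscle markers 2 were lower at an unadjusted p below 0.05 for 4 h against self-self arrays, among them Cnn1, for calponin, at -0.71 ± 0.20 (SE; limma adjusted p = 0.258), without overlap. The shares of all features on the lower side, by unadjusted p or by lack of overlap, are not given here. Whether these marker counts exceed such shares is thus not shown. The 4 red blood cell markers were all above 0 for 4 h against self-self arrays, with a median of 0.15. They were also all above 0 for 4 h against 20 min, with a median of 0.26. The part of these shifts in the ratios of the Pfk genes was not tested, and in RNA of whole tissue fewer cells of a type and less RNA per cell cannot be told apart.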

How the data were processed

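The authors deposited 1 table of log ratios of 2 channels, with 4952 probes and 14 arrays, treated here as log2 values. No source used here gives the base of the logarithm, the direction, the background correction or the normalization. Column medians lay between -0.07 and 0.02, so the deposited values look centred already. Intensities were not analysed here, so dim probes, slides and scans could not be examined, and the number of arrays limits the precision.

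Probes were named from the platform annotation, array medians were subtracted, and probes of 1 symbol were averaged (191 genes), which gave 4682 features. A single limma fit (version 3.58.1, R 4.3.3, lmFit and eBayes, 9 residual degrees of freedom) covered 12 arrays in 3 groups, with Benjamini-Hochberg adjustment over all features, and was tested on simulated data. The second array of pair 2 was left out as it repeats a pair. Every Pfk gene is named. Of each list up to 3 genes with the smallest p could be named, besides Slc2a5, Khk, Fbp1 and a gene that is not reported here, and of genes like a Pfk gene up to 5. Members, lists and motifs were chosen with earlier results of these data known.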

Additional observations from a re-analysis of the deposited data

Results flagged for a closer look

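The ratio of Pfkfb2 differed between the times, 0.74 higher at 4 h than at 20 min in limma's test of that difference (adjusted p = 0.0359, lost in 10 of 12 fits with 1 array left out).

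On the second array of pair 2, which is in no test, 5 genes had ratios larger in size than on any self-self array, at -0.99 for Pfkfb4, 0.87 for Pfkfb1, -0.58 for Pfkfb3, 0.43 for Pfkl and -0.30 for Pfkfb2. The largest sizes on the self-self arrays were 0.040 for Pfkfb4, 0.44 for Pfkfb1, 0.20 for Pfkfb3, 0.36 for Pfkl and 0.27 for Pfkfb2. The second array was wider over all its probes, with an SD of 0.82 against 0.33 to 0.40 on the 9 arrays at 4 h and 20 min. On the array of labelling primers, for which no tissue RNA is named, Pfkp had -0.30 and Pfkfb4 had 0.16, beyond their largest self-self sizes of 0.22 and 0.040. For neither array was the share of all features beyond their largest self-self sizes counted. These ratios are thus not shown to be particular to the Pfk genes. No ratio of a Pfk gene stood apart from its group by Dixon's test in the 14 groups of 4 or 5 arrays examined.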

How the results depend on the processing

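Of 462 combinations of a Pfk gene, a comparison and an alternative, 435 kept direction and side of the threshold. For 4 h against 20 min, 1 Pfk gene and 28 features in all were called. These became 0 and 16 with the arrays scaled to 1 spread, 0 and 0 with the second array of pair 2 averaged in as deposited, and 0 Pfk genes with its sign turned. With 1 array left out they ranged from 0 to 1 and from 4 to 43.

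The times share pair numbers, but the labels do not say what a number marks, and the values gave no sign of pairing throughout: deviations of same-numbered arrays correlated above 0.1 in 1 of 4 pairs, and not every array correlated best with its own number. With the pair number as a block, 0 Pfk genes (Pfkfb2 at 0.70, adjusted p = 0.10) and 12 features were called for 4 h against 20 min, 0 features for 20 min against self-self arrays, and Pfkp for 4 h against self-self arrays became 0.039.

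For 4 h against self-self arrays, 0 Pfk genes and 3 features were called, and 0 features with the second array as deposited. Set against 0 these became 4 and 763, and with 1 array left out 0 and from 2 to 5. For 20 min against self-self arrays, 0 Pfk genes and 2 features were called. These became 1 and 384 against 0, where Pfkl was 0.14, and 0 features with the arrays scaled or with only these groups fitted. With 1 array left out they were 0 and from 0 to 4.

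For 4 h against 20 min, Pfkfb1 was -0.030 with the arrays scaled, -0.039 with the sign of the second array turned, and from -0.086 to 0.17 with 1 array left out. Pfkfb3 was -0.020 with the second array as deposited and from -0.079 to 0.11 with 1 array left out. The cause of these changes was not tested. Treating exact zeros as missing, chosen after seeing the data, left all counts at 0, 0 and 1 Pfk genes and 3, 2 and 28 features. Whether time of perfusion or the set of arrays lies behind a difference between the times cannot be told apart.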

Other observations

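Ratios of exactly 0 were listed for 37, 53, 61 and 123 probes on the 20 min arrays 1 to 4 and for 0 probes on every array of 4 h, self-self RNA or primers. The cause of this difference was not tested. Of the 7 Pfk genes only Pfkfb3 has such a value, on 20 min array 4.

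Pfkfb1 had a positive ratio on all 14 arrays, from 0.062 on the primer array to 1.25 on 4 h array 1. So had Pfkl, from 0.034 on self-self array 2 to 1.26 on 4 h array 3. On the primer array the Pfk genes other than Pfkfb1 lay between -0.30 and 0.18.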
